A study of Pseudotsuga menziesii with 72 samples.

Results

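The transcripts described here are those of Douglas-fir needles whose mean level stood high and nearly flat at 10:00, 14:00 and 18:00 and low at 22:00, 2:00 and 6:00. They were chosen from the measured levels, given as CPM, a count divided by its library's total and scaled to a common size. A transcript had to have a mean of 5 to under 1000 CPM and a mean of at least 1 CPM in every tree. Its 3 daytime means had to lie within 1.5-fold of each other, and the lowest of them had to be at least 1.5 times the highest of the 3 night means. Of 180879 transcripts in the counts table, 16040 were within the level limits and 4 met the whole rule. They are psme_t033985, psme_t031896, psme_t024342 and psme_t032177. Daytime and night mean these clock times throughout.

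The libraries come from needles of 6 young Douglas-fir trees (Pseudotsuga menziesii), 2 in each of 3 half-sib families per the labels' protocol, although a family tag in the labels is shared by the trees numbered 1 and 2. All trees came from a low-elevation seed source of the Oregon Siskiyou and grew in Corvallis, and the labels name no treatment. Each tree was sampled every 4 h at 12 collections, the first at 2:00, over 2 consecutive days in September. Each of the 72 strand-specific libraries was made from polyA RNA of several needles of 1 tree. Day 2 is the last 6 collections and day 1 the first 6. Libraries held 10.3 to 55.9 M counts (median 22.8 M). The rule leaves out a library of tree 1B and another of tree 2A, both labelled hour 4, whose profiles were the only 2 of 72 that lay nearest another tree. This leaves 70 libraries, 12 at each clock time except 6:00, which has 10. Each tree was thus sampled repeatedly, and fewer cells of a type and less RNA per cell cannot be told apart in them.

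Needles are the photosynthetic organs of conifers. In plants, many transcripts follow the time of day, some through the circadian clock, which keeps running without outside cues, and others through responses to light, temperature and water status. A transcript that is high in all daylight samplings and low in all night ones differs in shape from one with a single sharp daily peak. The deposited tables name the 4 transcripts by identifier alone, so no gene, protein or role is given to any of them here.

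A broad daytime plateau was met by few transcripts of these needles. Of the 16040 transcripts, 910 had every daytime mean above every night mean, and in 26 of them the lowest daytime mean was at least 1.5 times the highest night mean. Of these 26, 22 failed the limit on flatness, 20 with their highest mean at 14:00 and 2 at 10:00. The same rule was also applied to the other runs of 3 neighbouring clock times. It found 33 transcripts high at 2:00 to 10:00, 3 at 6:00 to 14:00, 79 at 14:00 to 22:00, 1 at 18:00 to 2:00 and 99 at 22:00 to 6:00. These counts describe shapes and were not tested against each other.

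The ratio of the lowest daytime mean to the highest night mean was 1.97 for psme_t033985, 1.96 for psme_t031896, 1.70 for psme_t024342 and 1.50 for psme_t032177. The daytime means of the first 3 lay within 1.18-fold, 1.48-fold and 1.13-fold, and those of psme_t032177 ran from 36.5 to 45.7 CPM. Thus psme_t031896 stood just inside the limit on flatness and psme_t032177 just inside the limit on the ratio. The next transcripts outside it were psme_t018411 with a ratio of 1.46, psme_t044651 with 1.43 and psme_t029871 with 1.40. These values chose the transcripts and support nothing by themselves.

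**Figure D1:**
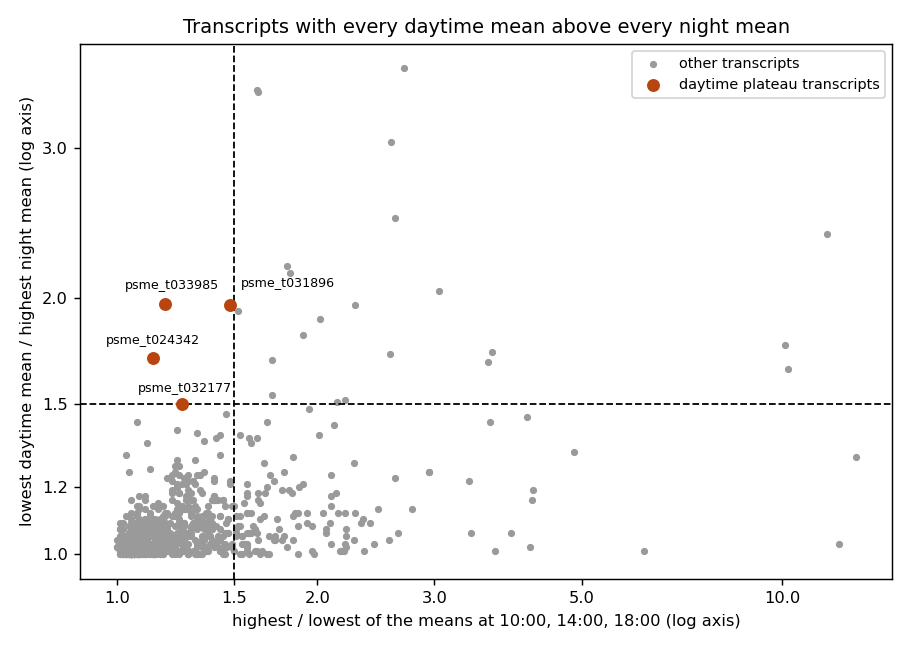
Each of the 910 points is a transcript with every daytime mean above every night mean. The horizontal axis is the fold between its highest and lowest daytime mean, the vertical axis the ratio of its lowest daytime to its highest night mean (both log axes), and the dashed lines are the limits of 1.5. The 4 daytime plateau transcripts lie in the upper left field, with psme_t031896 close to its right edge and psme_t032177 on its lower edge.

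The first 3 transcripts were at low to moderate levels and varied widely at every daytime clock time. In the 12 libraries at 10:00, psme_t033985 ranged from 1.85 to 51.2 CPM (median 8.63), at 14:00 from 6.27 to 41.0 CPM (median 11.3) and at 18:00 from 5.69 to 24.8 CPM (median 13.3). Its night libraries ranged from 1.74 to 21.4 CPM at 22:00 (median 6.16), and at 2:00 lay between 1.04 and 15.2 CPM (median 3.00). The 10 libraries at 6:00 lay between 1.23 and 10.2 CPM (median 3.26). Daytime and night libraries of psme_t033985 therefore overlapped, and the median was lowest at 10:00 among the daytime clock times although the mean, 18.5 ± 16.5 CPM (SD, n = 12), was the highest.

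The next pair had the same breadth. In the 12 libraries each of 10:00, 14:00 and 18:00, psme_t031896 had medians of 17.6, 17.1 and 18.5 CPM, with extremes of 8.30 and 84.3 CPM. Its night medians were 8.90 CPM at 22:00, 5.68 CPM at 2:00 and 5.66 CPM at 6:00, with extremes of 2.01 and 32.2 CPM. Daytime medians of psme_t024342 were 4.93, 9.31 and 10.3 CPM at 10:00, 14:00 and 18:00, with extremes of 1.59 and 36.6 CPM. Its night medians were 5.87 CPM at 22:00, 3.49 CPM at 2:00 and 2.80 CPM at 6:00, with extremes of 0.645 and 19.0 CPM. By medians over both days together, then, psme_t031896 was flat through the daytime. Its medians at 10:00, 14:00 and 18:00 were 43.6, 42.6 and 28.3 CPM on day 2 alone. On day 1 alone they were 13.7, 14.5 and 16.7 CPM (n = 6 each), so the flat medians join days of unlike level and course. By the median over both days, psme_t024342 at 10:00 was no higher than at 22:00. Its mean at 10:00, 13 ± 13.1 CPM (SD, n = 12), joins 6 libraries of day 2 that averaged 22.8 CPM and 6 of day 1 that averaged 3.22 CPM.

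The fourth transcript was steadier. The level of psme_t032177 averaged 36.5 ± 5.10 CPM at 10:00, 45.7 ± 8.29 CPM at 14:00 and 45.5 ± 9.88 CPM at 18:00 (SD, n = 12 each). At night it averaged 24.3 ± 4.63 CPM at 22:00, 21.5 ± 3.58 CPM at 2:00 (n = 12 each) and 23.4 ± 4.06 CPM at 6:00 (n = 10). Its libraries at 10:00 ranged from 29.5 to 44.5 CPM and those at 2:00 from 15.1 to 27.7 CPM, with no overlap. The lowest library at 18:00 held 24 CPM and the highest at 22:00 held 34.8 CPM, so that these clock times did overlap. The lowest counts of the 4 transcripts in any of the 70 libraries were 14, 27, 9 and 274.

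**Figure D2:**
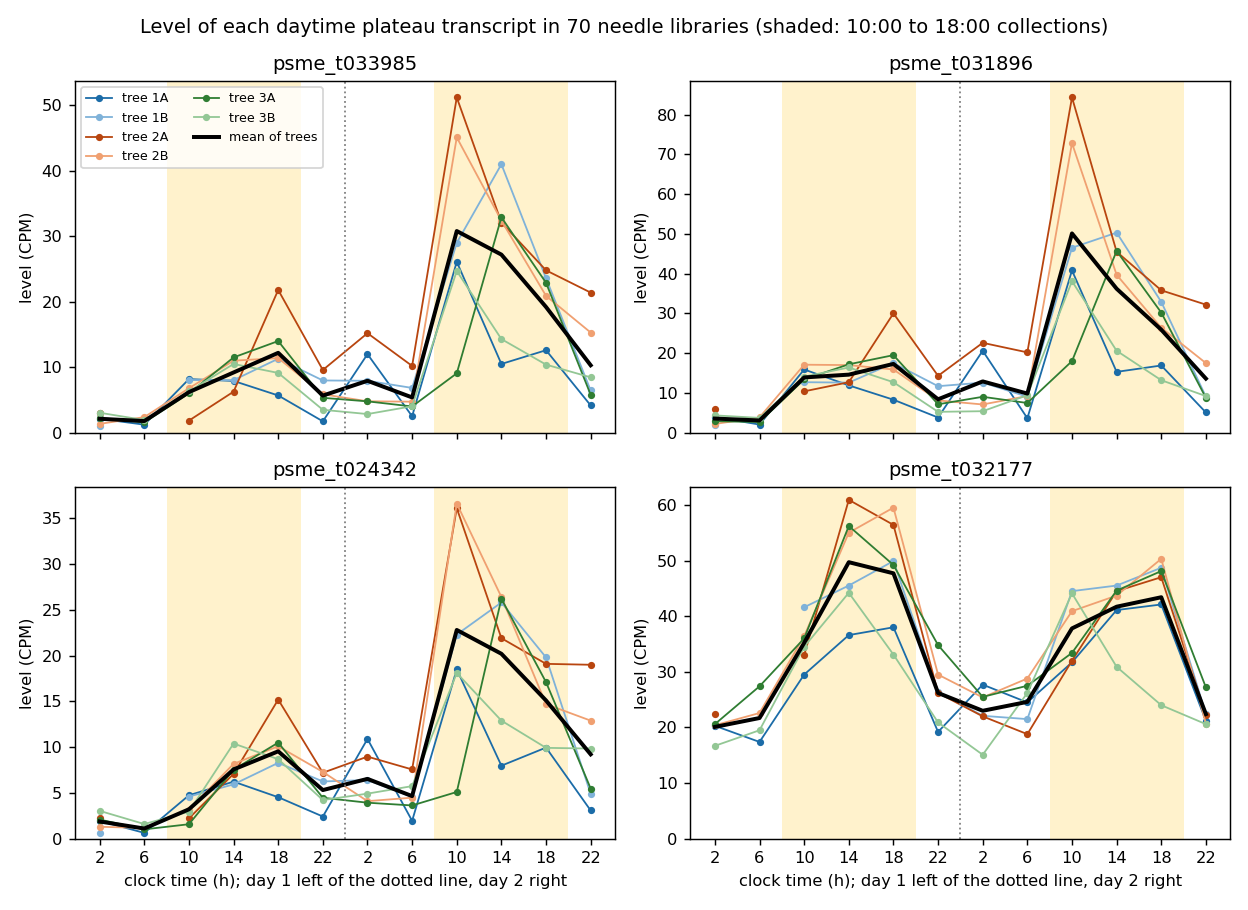
Level in CPM of the 4 transcripts at the 12 collections, with a thin line for each of the 6 trees and a thick line for their mean. The shaded collections are those of 10:00 to 18:00, and the dotted line parts day 1 from day 2. For psme_t033985 the highest library of day 2 reached 51.2 CPM and that of day 1 reached 21.8 CPM, while for psme_t032177 they reached 50.3 and 60.9 CPM.

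Of the 4 transcripts, 3 stood more than 2-fold higher on day 2 than on day 1. The rule did not contrast the days, but its means over both weight the day of higher level more. On day 1 alone the ratio of lowest daytime to highest night mean was 1.09 for psme_t033985 and 0.605 for psme_t024342, and on day 2 alone it was 1.87 and 1.64. The tests between the days are therefore not independent of the choice, and they describe these transcripts without supporting anything about plateau transcripts in general. The level of psme_t033985 averaged 16.8 ± 12.9 CPM on day 2 (SD, n = 36) and 6.46 ± 4.57 CPM on day 1 (n = 34). For psme_t031896 the averages were 24.8 ± 19.2 CPM on day 2 and 10.6 ± 6.53 CPM on day 1, and for psme_t024342 they were 13.1 ± 9.30 CPM on day 2 and 4.99 ± 3.51 CPM on day 1. Between libraries of the same tree and clock time, that of day 2 was the higher in 32 of 34 pairs for psme_t033985 and in 33 of 34 for each of the others. In edgeR's quasi-likelihood test, psme_t033985 rose 2.40-fold (log2 change 1.26 ± 0.16, SE, adjusted p = 3.08e-09). By the same test psme_t031896 rose 2.15-fold (1.10 ± 0.14, adjusted p = 3.77e-09) and psme_t024342 rose 2.58-fold (1.37 ± 0.16, adjusted p = 7.53e-10). Among all 52820 transcripts tested, 32.7% differed between the days, 14.4% being higher and 18.2% lower on day 2. Among those of 5 to under 1000 CPM, 53.0% differed. Rises of at least 2-fold were called for 1.49% of all and for 1.02% of those of 5 to under 1000 CPM, and because of the choice nothing is read from these shares.

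The fourth transcript did not pass this test. The level of psme_t032177 averaged 32.1 ± 10.6 CPM on day 2 (SD, n = 36) and 34.1 ± 13.5 CPM on day 1 (n = 34), and the day 2 library was the higher in 16 of 34 pairs. Its fitted log2 change in edgeR was −0.12 ± 0.06 (SE, adjusted p = 0.103). Without tree 1A it passed the threshold of 0.05 (−0.17, adjusted p = 0.022), and so it did when the transcripts with at least 1 CPM in every library alone were tested (−0.12, adjusted p = 0.0488). The transcripts just outside the rule moved in unlike ways, with log2 changes of 0.36 ± 0.07 for psme_t018411, −0.30 ± 0.08 for psme_t044651 and −0.50 ± 0.10 for psme_t029871 (adjusted p of 1.21e-05, 0.00268 and 0.000121 in edgeR). In the last 8 collections alone, that of psme_t018411 was −0.05 (adjusted p = 0.737) and that of psme_t029871 was −0.39 (adjusted p = 0.0817). That of psme_t044651 was −0.44 there and still passed in edgeR (adjusted p = 0.0223).

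**Figure D3:**
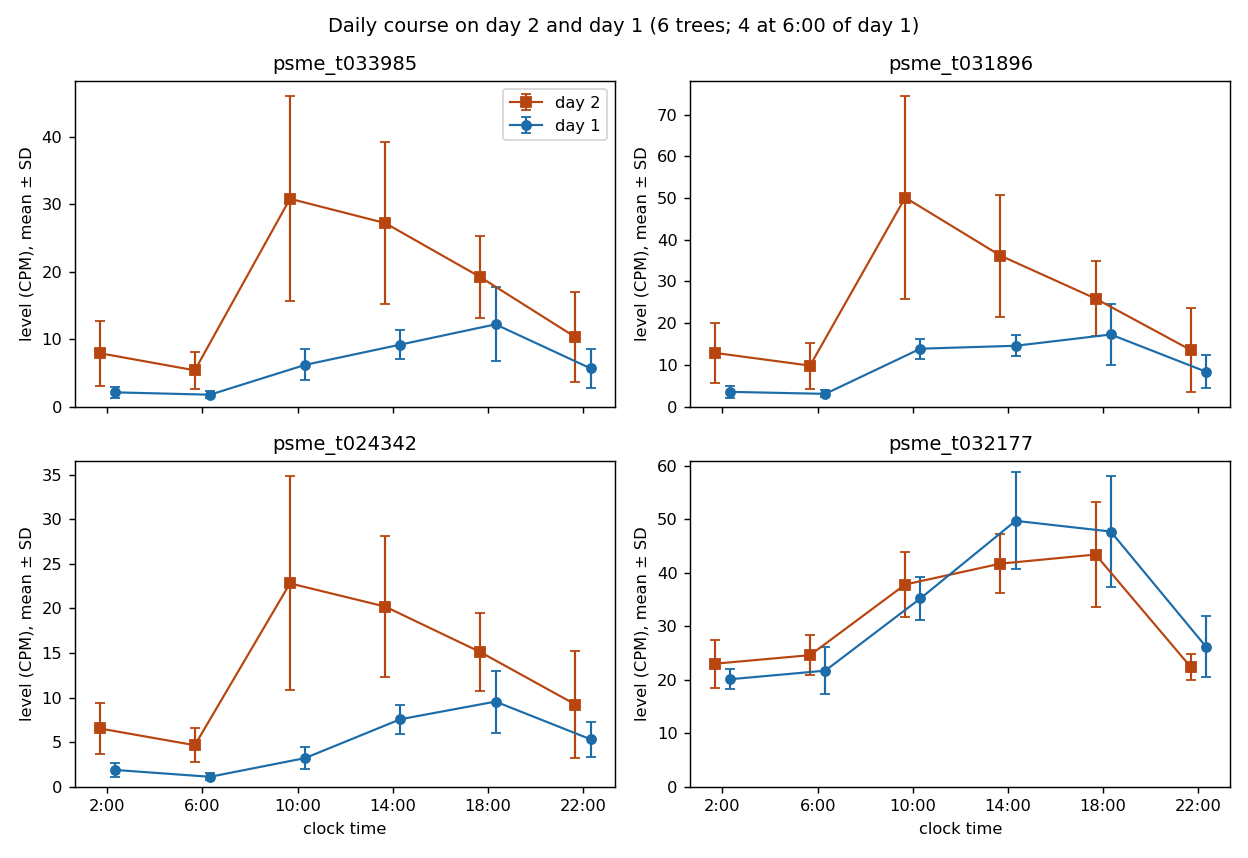
Mean level in CPM with its SD over the trees at each clock time, squares for day 2 and circles for day 1 (6 trees, but 4 at 6:00 of day 1). For psme_t033985, psme_t031896 and psme_t024342 the mean of day 2 lies above that of day 1 at every clock time and is highest at 10:00, while that of day 1 is highest at 18:00.

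The days were also compared at each clock time. At 10:00, psme_t033985 had a lowest, median and highest level of 9.07, 27.5 and 51.2 CPM in the 6 trees on day 2, against 1.85, 6.55 and 8.19 CPM on day 1. Every day 2 value exceeded every day 1 value, although the lowest of them, in tree 3A, did so narrowly. At 10:00 the fitted log2 change was 2.02 ± 0.35 (SE, adjusted p = 1.62e-05 in edgeR), and it was 1.57 ± 0.30 for psme_t031896 (adjusted p = 0.000104) and 2.63 ± 0.34 for psme_t024342 (adjusted p = 4.17e-08). At that clock time 9.76% of all transcripts were higher on day 2. This share and those at the other clock times are over all transcripts tested and are not matched in level to the 3. The 3 transcripts passed as well at 2:00, with log2 changes of 1.76, 1.79 and 1.72, where 3.42% of all were higher. They also passed at 14:00, with 1.34, 1.11 and 1.28, where 6.31% of all were higher. At 6:00, where 5.16% of all were higher, psme_t031896 (1.14, adjusted p = 0.0331) and psme_t024342 (1.61, adjusted p = 0.00816) passed, and psme_t033985 was at 1.12 (adjusted p = 0.0811).

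At 18:00 and 22:00 none of the 4 passed in edgeR, and 1.93% and 0.812% of all transcripts were higher on day 2. The fitted log2 changes of psme_t033985, psme_t031896 and psme_t024342 were 0.59, 0.51 and 0.59 at 18:00 and 0.83, 0.62 and 0.71 at 22:00, with adjusted p from 0.286 to 0.457. The day 1 libraries of 2:00, 6:00, 10:00 and 14:00 are the first 4 collections, and the libraries of 18:00 and 22:00 lie among the last 8 on both days. A difference between the days and one between the first 4 collections and the rest therefore cannot be told apart at 2:00 to 14:00. On day 1 the last 8 collections hold only 18:00 and 22:00, where none of the 4 passed singly. The contrast of the days within the last 8 pools these clock times and is not separate evidence. In it the rise was smaller and passed, with a log2 change of 0.69 for psme_t033985 (adjusted p = 0.0157). The change was 0.55 for psme_t031896 (adjusted p = 0.0454) and 0.64 for psme_t024342 (adjusted p = 0.0282). A term for each tree's first 4 collections, added to the model, gave 0.70, 0.56 and 0.65.

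**Figure D4:**
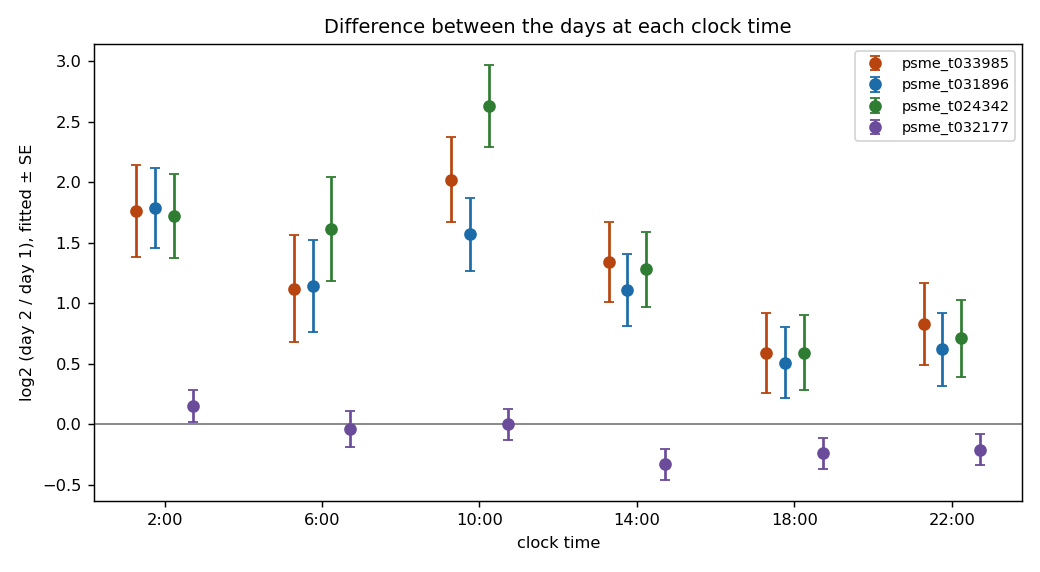
Fitted log2 ratio of day 2 to day 1 at each clock time, with its SE, for the 4 transcripts. For psme_t033985, psme_t031896 and psme_t024342 the ratios lie above 0 throughout and are lowest at 18:00, where they are 0.59, 0.51 and 0.59, while those of psme_t032177 lie between −0.33 and 0.15.

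The flat daytime means of psme_t024342 and psme_t033985 were averages over days on which their means ran differently. On day 1 psme_t024342 averaged 3.22 ± 1.26 CPM at 10:00, 7.57 ± 1.63 CPM at 14:00 and 9.55 ± 3.47 CPM at 18:00 (SD, n = 6 each). On day 2 it averaged 22.8 ± 12.0 CPM at 10:00, 20.2 ± 7.89 CPM at 14:00 and 15.1 ± 4.38 CPM at 18:00. Its daytime means thus spanned 1.51-fold on day 2, with the highest at 10:00, and 2.97-fold on day 1, with the highest at 18:00. On day 1 psme_t033985 averaged 6.20 ± 2.31, 9.20 ± 2.09 and 12.2 ± 5.46 CPM at 10:00, 14:00 and 18:00, and on day 2 it averaged 30.8 ± 15.2, 27.2 ± 12.0 and 19.2 ± 6.12 CPM (n = 6 each). These means spanned 1.61-fold on day 2 and 1.97-fold on day 1. Neither transcript met the whole rule on either day taken alone. On day 1 both missed both limits. On day 2 both passed the limit on the ratio, with 1.64 for psme_t024342 and 1.87 for psme_t033985. Both then missed the limit on flatness, psme_t024342 only narrowly. When the daily courses of the days were compared in edgeR, as given below, psme_t033985 did not pass (adjusted p = 0.162) and psme_t024342 did (adjusted p = 0.00904).

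The other transcripts each met the rule on 1 day. On day 1 psme_t031896 averaged 13.9 ± 2.38, 14.6 ± 2.49 and 17.3 ± 7.35 CPM at 10:00, 14:00 and 18:00, within 1.24-fold. On day 2 it averaged 50.1 ± 24.3, 36.2 ± 14.6 and 25.9 ± 9.05 CPM, a span of 1.93-fold. Conversely psme_t032177 met the rule on day 2, where its daytime means of 37.8 ± 6.07, 41.7 ± 5.50 and 43.4 ± 9.89 CPM lay within 1.15-fold and its ratio of lowest daytime to highest night mean was 1.54. On day 1 its daytime means were 35.2 ± 4.03, 49.7 ± 9.09 and 47.7 ± 10.3 CPM (n = 6 each), within 1.41-fold, and its ratio was 1.34.

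The hour of the highest library in a tree followed the same pattern. On day 2, psme_t033985, psme_t031896 and psme_t024342 each were highest at 10:00 in 4 trees and at 14:00 in 2. On day 1 the highest library was that of 18:00 in 4 trees for psme_t033985, in 3 for psme_t031896 and in 4 for psme_t024342. For psme_t032177 it was that of 18:00 in 5 trees on day 2 and in 3 on day 1. In no tree and on neither day was the highest library a night one for any of the 4 transcripts. The rule chose them for daytime means above night means in these same libraries, so this is a description. The night libraries left out of trees 1B and 2A on day 1 were not counted.

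Whether the daily course differed between the days was tested as an interaction, which 11.8% of all transcripts passed and 24.3% of those of 5 to under 1000 CPM. Of the 4, psme_t024342 passed in edgeR (adjusted p = 0.00904), and 1 of 4 is near that background. It did not pass without tree 2B (adjusted p = 0.118). Leaving the replicate block of trees out of the model gave it an adjusted p of 0.148. The adjusted p in edgeR was 0.162 for psme_t033985, 0.136 for psme_t031896 and 0.306 for psme_t032177, which does not show that their courses were alike. The first 4 collections fill part of day 1, so their difference from the rest lies within this test as well.

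Daytime stood above night in every tree and on each day for all 4 transcripts, by the mean of the 3 daytime libraries against the night libraries of the same tree and day. The ratio of the mean daytime to the mean night level of psme_t033985 was 1.94 in tree 2A and lay between 2.98 and 4.05 in the other trees. In tree 2A it was 1.91 for psme_t031896 (others 2.78 to 3.94) and 1.88 for psme_t024342 (others 2.14 to 3.29). The night means of trees 1B and 2A lack the 6:00 library of day 1, a clock time of low levels, so their ratios are not matched to those of the other trees and no order is read from them. For psme_t032177 the ratio ran from 1.64 in tree 3A to 2.04 in trees 1B and 2A. A stricter view, with every daytime library above every night library of the same tree and day, held for psme_t032177 in 5 of 6 trees on day 2 and 6 of 6 on day 1. It held for psme_t033985 and for psme_t031896 in 5 of 6 trees on each day, and for psme_t024342 in 4 of 6 trees on day 2 and 1 of 6 on day 1. These values take up the contrast that the rule used and are given as a description.

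The plateau in its full form was met in few single trees. Tree 1B alone met both limits for psme_t033985, psme_t031896 and psme_t024342, with ratios of lowest daytime to highest night mean of 2.42, 2.42 and 2.40. For psme_t032177, trees 1B and 2B met them, with ratios of 1.77 and 1.50. In tree 3A the ratio of psme_t024342 was 0.672 and its daytime means spanned 5.03-fold. At 10:00 that tree held 5.11 CPM on day 2 and 1.59 CPM on day 1, close to its 5.49 CPM at 22:00 on day 2 and below its 4.48 CPM at 22:00 on day 1. The lowest ratio of psme_t031896 in any tree was 1.03, in tree 1A.

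**Figure D5:**
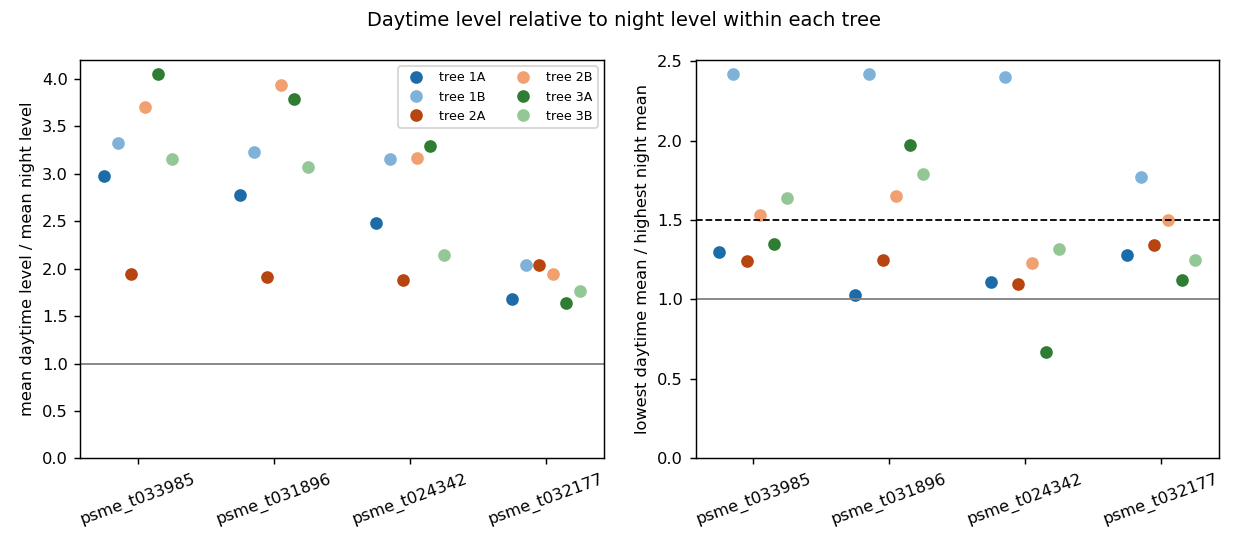
Left, the mean daytime level over the mean night level of each transcript in each of the 6 trees, and right, the lowest daytime mean over the highest night mean, with the limit of 1.5 as a dashed line and 1 as a solid line. All points on the left lie above 1, and on the right psme_t024342 in tree 3A (0.672) alone lies below it.

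The size of the step between daytime and night was not found to differ between trees. In the interaction of tree and daytime, 0.00757% of all transcripts passed and 0 of these 4 did in edgeR, with an adjusted p of 1 for each. The number of the 4 at an unadjusted p under 0.05 was also 0 in edgeR, in DESeq2 and in limma on the authors' normalized values. This does not show that the step was alike in all trees.

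The trees did differ in overall level. Tree 2A had the highest mean of psme_t033985, 17.9 CPM, and the other trees ran from 7.90 CPM in 1A to 13.7 CPM in 1B. It was also the highest for psme_t031896 (28.5 CPM, others 12.3 to 19.7 CPM) and psme_t024342 (13.3 CPM, others 6.08 to 10.9 CPM). This order did not hold in every collection. On day 1 tree 2A was the lowest for psme_t033985 at 10:00 (1.85 CPM) and 14:00 (6.27 CPM) and the highest at 18:00 (21.8 CPM). For psme_t031896 it was the lowest at 10:00 of day 1 (10.4 CPM). For psme_t024342 the highest tree was 3B at 14:00 of day 1 (10.4 CPM) and 2B at 10:00 of day 2 (36.6 CPM). The mean of psme_t032177 was 27.5 CPM in 3B and 29.1 CPM in 1A, while trees 1B, 2A, 2B and 3A lay between 35.1 and 36.1 CPM. The means of trees 1B and 2A lack the 6:00 library of day 1, a clock time of low levels. They are therefore not matched to those of the other trees. The adjusted p between trees in edgeR was 0.00105 for psme_t033985, 3.59e-05 for psme_t031896, 0.00703 for psme_t024342 and 0.0146 for psme_t032177. Of all transcripts 91.6% passed this test, and 95.5% of those of 5 to under 1000 CPM, so that 4 of 4 is near the background. Without tree 2A, psme_t033985, psme_t031896 and psme_t024342 did not pass (adjusted p of 0.257, 0.421 and 0.245), and psme_t032177 did not pass without tree 3A (adjusted p = 0.227).

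The tree of lowest level was often the same for the first 3 transcripts. In 9 of the 12 collections the tree with the lowest level was the same for psme_t033985, psme_t031896 and psme_t024342, and in 3 the tree with the highest level was. For psme_t033985 and psme_t031896 alone, the highest tree was shared in 10 collections and the lowest in 11. All 4 transcripts shared the lowest tree in 3 collections and the highest in 0. They share libraries and library totals, and whether any of them come from the same gene was not tested.

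Lists were also chosen by the rule on 1 day and tested on the other. The same rule applied to the day 1 libraries chose 3 transcripts, and all 3 were higher by day in the day 2 libraries in edgeR's test of daytime against night. In that test 19.5% of all transcripts were higher by day. Applied to the day 2 libraries, the rule chose 12 transcripts, of which 11 were higher by day in the day 1 libraries, where 9.82% of all were. Both shares are over all transcripts tested, whereas the lists hold only transcripts within the level limits. The share among those was not computed, so the lists and the shares are not matched in level. Of the 4 transcripts, psme_t031896 is on the list from day 1 and was 3.16-fold higher by day on day 2, and psme_t032177 is on the list from day 2 and was 1.98-fold higher by day on day 1. Both were first chosen with the libraries of both days, so these folds are a description. The lists shared 0 transcripts, and on the other day every daytime mean exceeded every night mean for 2 of the 3 and 3 of the 12. The share of all transcripts for which this held on 1 day alone was not computed, so nothing is read from these counts. The trees are the same on both days, so the measurement is repeated in the same plants.

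The 2 libraries left out are both of 6:00 on day 1. That labelled 1B held 1.36 CPM of psme_t033985 and that labelled 2A held 0.898 CPM, and the other 4 libraries of that collection held 1.23 to 2.38 CPM. For psme_t024342 they held 0.376 and 0.599 CPM, below the 0.645 to 1.61 CPM of the others. Their levels of psme_t032177 were 18.7 and 21.5 CPM, within the 17.4 to 27.4 CPM of the others. With all 72 libraries the rule chose the same 4 transcripts.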

How the data were processed

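Counts per transcript in 72 needle libraries were used as the authors deposited them, raw and whole-number. The submitters' processing notes name CASAVA 1.8, Bowtie2 2.2.3 and DESeq, and no transcriptome is given in the sources used here. The other deposited file holds normalized signal values, which equal the count divided by a size factor of the library, and served as an alternative. Libraries were assigned to tree and hour by title. A separate label of collection time differs from the title in 62 of 72.

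CPM is the count divided by the column sum. The members and all comparisons were chosen with earlier results of these data known. Tests were edgeR 4.0.16 quasi-likelihood F tests under R 4.3.3 on 70 libraries, after filterByExpr (minimum counts of 10 and 15, 12 collections as groups) and TMM scaling. All 4 transcripts were among the 52820 kept. Benjamini-Hochberg adjustment ran over all of these, with a threshold of 0.05. Standard errors are the log2 change divided by the square root of F. Models held tree, clock time and day, plus day by clock time or tree by daytime. Tree entered as a replicate block because the labels name the tree. As a check of this pairing, deviations from the collection means correlated at a median of 0.703 between libraries of a tree and −0.153 between trees. P-values measure the spread between repeated samples of 6 trees on 2 dates.

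Transcripts were named by rank in the rule, level, flatness and tests, which took in all 4, plus the next 3 by ratio. Alternatives were DESeq2 1.42.0, limma 3.58.1 on log2 of the normalized signal plus 1, other filters, libraries, thresholds and blocks, and each tree left out. The tests were tried on simulated counts. No libraries were identical (0 pairs). Further software was Python 3.11.15, pandas 2.3.3 and matplotlib 3.10.9 for tabulation and plots.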

Additional observations from a re-analysis of the deposited data

Results flagged for a closer look

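In 52 groups of trees, 5 libraries lay far from the others of their collection, where chance gives about 1 in 20 groups, or 2.60. For psme_t033985 tree 2A at hour 8 was the lowest, with 1.85 CPM against 6.00 to 8.19 CPM in the other trees. For psme_t031896 tree 2A at hour 28 was the highest, with 20.2 CPM against 3.64 to 9.43 CPM. Tree 3B held the lowest level of psme_t032177 at hour 36 (30.9 CPM, others 41.1 to 45.5 CPM) and at hour 40 (24 CPM, others 42.1 to 50.3 CPM). Tree 3A held its highest level at hour 44 (27.2 CPM, others 20.6 to 22.4 CPM).

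The daily course of psme_t024342 differed between day 2 and day 1 by the interaction of day and clock time (adjusted p = 0.00904 in edgeR). It did not pass without tree 2B (adjusted p = 0.118) or without the replicate block (adjusted p = 0.148), and 1 of 4 is near the 24.3% of transcripts of 5 to under 1000 CPM that passed. Its mean was highest at 10:00 on day 2 and at 18:00 on day 1. The test cannot be told apart from a difference of the first 4 collections from the rest.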

How the results depend on the processing

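The rule found 6 transcripts with TMM-scaled CPM and 6 with the authors' normalized values (4 and 3 of the 4 among them), and 3 to 5 without any 1 tree, with 2 to 4 of the 4 among them. It found 3 on day 1 alone (psme_t031896 of the 4 among them), 12 on day 2 alone and 4 in the last 8 collections alone (psme_t032177 of the 4 among each). It found 2 with a tighter limit on flatness, 12 with a limit of 2-fold, 21 with a lower ratio, 0 at a ratio of 2 and 815 without the level limits, with 2, 4, 4, 0 and 4 of the 4 among them. The rise on day 2 passed for psme_t033985, psme_t031896 and psme_t024342 in each alternative run in which they were tested. Their log2 changes ran from 0.69 to 1.39, 0.55 to 1.23 and 0.64 to 1.47, lowest in the last 8 collections, and were 1.37, 1.22 and 1.45 without the replicate block. The change of psme_t018411, 0.36 in all 70 libraries, was −0.05 within the last 8 collections and −0.05 with a term for each tree's first 4. The day by clock interaction was passed by 0 of the 4 without the replicate block, by 0 of the 3 that have at least 1 CPM in every library (psme_t024342 does not), and by 0 to 1 without 1 tree. Between trees, 1 to 4 passed without 1 tree. The lists tested on the other day changed in length when 1 tree was left out. Of those chosen on day 1, 2 of 2 or 3 of 3 passed on day 2 (no transcript was chosen without tree 1A). Of those chosen on day 2, the numbers passing on day 1 ran from 6 of 9 without tree 1B to 20 of 20 without tree 2A. Over all transcripts the day test called 17246, against 7374 without the replicate block, 6240 in the last 8 collections, 5618 with the term for each tree's first 4, 9962 at 1 CPM or more in every library and 11534 at an adjusted p under 0.01; the day by clock interaction called 6246, against 431 without the replicate block, 2865 at an adjusted p under 0.01, 4067 without a filter, 4158 with all 72 libraries and 2599 to 5630 without 1 tree. Between trees it was 48399, against 104327 without a filter and 17589 at 1 CPM or more in every library. For tree by daytime it was 4, and 0 to 57 in the alternatives, none of them one of the 4 transcripts. Without the replicate block the lists tested on the other day had 2 of 3 and 9 of 12 higher by day.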

Other observations

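Outside the limit on flatness, psme_t001740 and psme_t002108 were chosen after their values were seen. Their lowest daytime mean was 3.51 and 3.49 times their highest night mean, a larger ratio than that of any of the 4 transcripts, while their daytime means spanned 1.62-fold and 1.63-fold. Of the 247 transcripts listed in the normalized table alone, 0 were within the level limits.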
